A study of Homo sapiens with 15 samples.

Results

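Fatty acid synthesis and desaturation was followed through 10 genes of 25681 measured in the established synovial sarcoma line HSSYII, whose cells have the SS18-SSX1 fusion gene. The genes were ACLY and ACSS2 (supply of acetyl-CoA), ACACA and FASN (chain synthesis), ELOVL6 (elongation), SCD, FADS1 and FADS2 (desaturation), LPIN1 (glycerolipid assembly) and SREBF1 (transcriptional control), and all 10 were found. The list was selected on measured values, the log2 fold changes of such genes between dBRD9A and DMSO, so their values in that comparison are given as a description with no test. Their values in the other comparisons are tested below, of which shRenilla against DMSO shares the DMSO libraries that entered the selection.

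RNA was sequenced from 5 groups of 3 libraries each, all of the same cell line. In the first experiment cells were kept for 6 hr with DMSO or with 100 nM dBRD9A, a compound that targets the BRD9 protein, a subunit of a chromatin remodelling complex, for degradation. In the second, cells were infected with GFP-tagged lentivirus carrying shRenilla, a control hairpin, or 1 of 2 hairpins against the fusion (shSS18-SSX1-1 and shSS18-SSX1-2), and were collected at 96 hr. No drug selection followed infection, so a library can hold cells without a hairpin. The comparisons ask whether loss of BRD9, or of the fusion, alters expression of these genes. The sources do not say that libraries came from separate cultures, and the p-values therefore rest on differences among libraries that could be technical only. In bulk RNA, fewer cells of a type and less RNA per cell cannot be told apart.

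The first committed step of fatty acid synthesis is the carboxylation of acetyl-CoA by ACACA, and FASN then builds palmitate from the product. ELOVL6 lengthens palmitate, SCD places a double bond in the saturated chain, and FADS1 and FADS2 desaturate polyunsaturated chains. SREBF1 encodes a membrane-bound transcription factor that, once cleaved, activates most of these genes, and INSIG1 holds it in the endoplasmic reticulum when sterols are plentiful. Tumour cells are known to make much of their fatty acid themselves.

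Promoter sequence was looked at because the genes are known to share regulators. RefSeq (GRCh38.p14) gave windows for 9 of the 10 genes, 16 windows in all, of which the 250 bases before each start were searched on both strands. The letters CCAAT, bound by the NF-Y factor, were in 6 of the 16 windows (4 of the 9 genes) and in 32% of all 35116 windows. GGGCGG, the GC box, was in 13 of the 16 windows (9 of the 9 genes) and in 42.6% of all windows. Genes with several windows have several chances of a match, so the shares are given by window. No share of all genes was taken to set beside the counts of genes. The windows were not matched to all windows for GC content, so nothing is read from the share with a GC box. Windows are not independent, because those of 1 gene can overlap. The 2 windows of ACLY share 2 CCAAT matches and 3 GC boxes, which are thus counted in both. TCACNCCAC, a sterol regulatory element core, was in none of the 16 windows and in 0.883% of all, and the E-box CACGTG was in none of the 16 and in 6.34% of all. A match is a description of these letters and not a binding site, and the absence of a match concerns only these windows. The windows of 3 genes are printed to show how the motifs lie: SCD for its change with dBRD9A, ACLY as another gene with CCAAT, and SREBF1 as the regulator. Matches to CCAAT or GGGCGG, or to their reverse complements, are in capitals.
SCD, chr10:100346983-100347232, plus strand: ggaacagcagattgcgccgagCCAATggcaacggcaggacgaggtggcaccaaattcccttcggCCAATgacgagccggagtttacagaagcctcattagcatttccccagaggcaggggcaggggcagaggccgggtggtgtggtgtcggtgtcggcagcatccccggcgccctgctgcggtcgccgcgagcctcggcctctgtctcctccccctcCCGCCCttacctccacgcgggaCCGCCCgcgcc
ACLY, chr17:41919023-41919272, minus strand: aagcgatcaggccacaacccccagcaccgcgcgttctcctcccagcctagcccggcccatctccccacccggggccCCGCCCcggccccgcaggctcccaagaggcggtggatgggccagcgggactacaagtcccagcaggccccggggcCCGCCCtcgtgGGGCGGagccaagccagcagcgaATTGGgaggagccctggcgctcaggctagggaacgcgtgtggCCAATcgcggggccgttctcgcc
SREBF1, chr17:17836987-17837236, minus strand: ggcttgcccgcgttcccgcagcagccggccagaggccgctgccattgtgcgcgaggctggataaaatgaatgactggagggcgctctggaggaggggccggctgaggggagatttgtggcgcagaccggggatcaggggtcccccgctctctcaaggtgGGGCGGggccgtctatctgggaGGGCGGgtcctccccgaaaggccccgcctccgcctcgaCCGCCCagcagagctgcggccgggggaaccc
SCD held 2 CCAAT letters and 2 GC boxes, ACLY held 2 and 3, and SREBF1 held no CCAAT and 3 GC boxes. FADS1 and FADS2 lie on opposite strands of chromosome 11, and the FADS1 start is 599 or 800 bases beyond the FADS2 starts, so that their transcripts overlap at their 5' ends.

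The total count per library was between 18580419 and 27031647, with a median of 22382782. BRD9 mRNA was at 88.5 ± 2.96 CPM (counts scaled to the library total by TMM, the trimmed mean of M-values) with DMSO and 93.2 ± 3.49 with dBRD9A (SD, n = 3 each), and mRNA is no check of a compound that acts on the protein. SSX1, the 3' partner of the fusion, went from 63.6 ± 11.8 CPM with shRenilla to 20.1 ± 1.22 and 28.7 ± 0.737 CPM with the hairpins. Of 5 synovial sarcoma markers, 4 had counts in every group, and CD99 was listed at 0 in each library. Replicate 1 of shRenilla stood apart from its group: its counts differed from replicates 2 and 3 with a chi-square per degree of freedom of 34.6 and 25.6, whereas the largest value for any other pair was 9.32. The results of the 10 genes against shRenilla are therefore given with and without it, and so are the counts of the gene lists. TMM scaling cannot show a change shared by all genes.

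SCD had the highest level of the 10 genes per transcript length in DMSO, with 240.1 CPM per kb, followed by ACLY with 120.7 and FASN with 113.9. FADS2 and FADS1 were close to each other at 87.6 and 83.7 CPM per kb. SREBF1 came next at 37.7, and ACACA, ACSS2, ELOVL6 and LPIN1 were low, at 14.3, 11.7, 5.75 and 3.14. With shRenilla the means were 86.2 CPM per kb for ACLY and 77.8 for SCD, and their libraries overlapped (76.6 to 97.7 and 69.5 to 85.7). All 10 genes passed the filter on low counts in each comparison, and the lowest CPM of any of them was that of LPIN1.

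**Figure D1:**
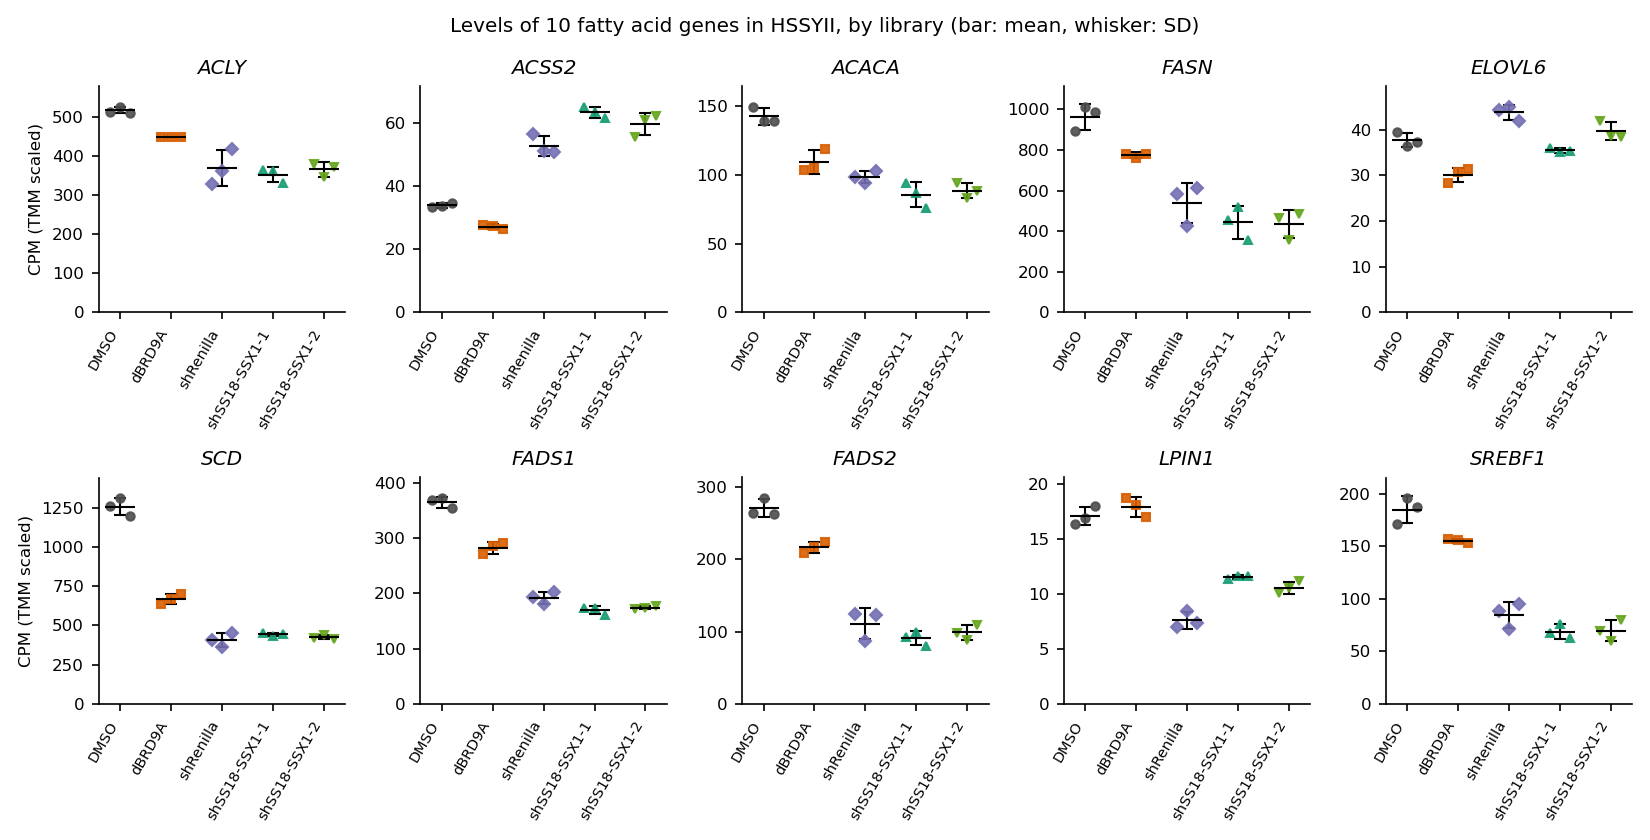
Each panel plots 1 gene in CPM scaled by TMM, with 1 point per library in the 5 groups, the mean as a bar and the SD as a whisker. SCD lies at 1200 to 1314 CPM with DMSO, 638 to 700 with dBRD9A and 365 to 453 in the 9 libraries of the second experiment.

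After 6 hr of dBRD9A, 9 of the 10 genes were below DMSO in mean level and LPIN1 was above it. The 9 are among the genes called lower (18.2% of 13652 genes were called lower and 17.7% higher, at an adjusted p under 0.05), but the selection of the list fixes that count, which is no test and from which nothing is read. Their log2 fold changes had a median of -0.31, against 0.01 over all genes tested. SCD, the desaturase that makes oleate, was 1264, 1314 and 1200 CPM in the DMSO libraries and 638, 668 and 700 CPM with dBRD9A. The groups did not overlap, and the log2 fold change was -0.91 with a standard error of 0.0322, from 1259 ± 56.9 to 669 ± 31.5 CPM (SD, n = 3 each), that is to 0.533 of its level. SCD was the 1 gene of the 10 past 1.5-fold. Of all genes tested, 0.593% were lower, and 2.23% higher, past that fold with an adjusted p under 0.05.

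Of the other members, 8 were lower, by log2 fold changes of -0.20 to -0.38, and LPIN1 was not. ACACA, which makes malonyl-CoA, was 150, 139 and 139 CPM with DMSO and 104, 105 and 119 CPM with dBRD9A, a log2 fold change of -0.38 (standard error 0.0430). FASN was 892, 1014 and 985 CPM with DMSO and 783, 760 and 783 CPM with dBRD9A, a change of -0.31 (0.0337). For both genes every dBRD9A library was below every DMSO library. FADS1, the delta-5 desaturase, was 369, 373 and 354 CPM with DMSO and 271, 285 and 292 CPM with dBRD9A, a change of -0.36 (0.0316). FADS2, the delta-6 desaturase, changed by -0.31 (0.0347), ELOVL6 by -0.32 (0.0534) and ACSS2, which makes acetyl-CoA from acetate, by -0.31 (0.0524). ACLY, which makes it from citrate, changed by -0.20 (0.0269), from 518 ± 8.15 to 449 ± 0.730 CPM. None of these groups overlapped, from which nothing is read because the list was selected on this comparison. SREBF1 was 171, 196 and 188 CPM with DMSO and 157, 156 and 153 CPM with dBRD9A, a change of -0.25 (0.0388). LPIN1, a phosphatidate phosphatase that makes diacylglycerol, was 16.4, 16.9 and 18.0 CPM with DMSO and 18.7, 18.1 and 17 CPM with dBRD9A. Its groups overlapped, and its log2 fold change was 0.08 (0.0667).

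**Figure D2:**
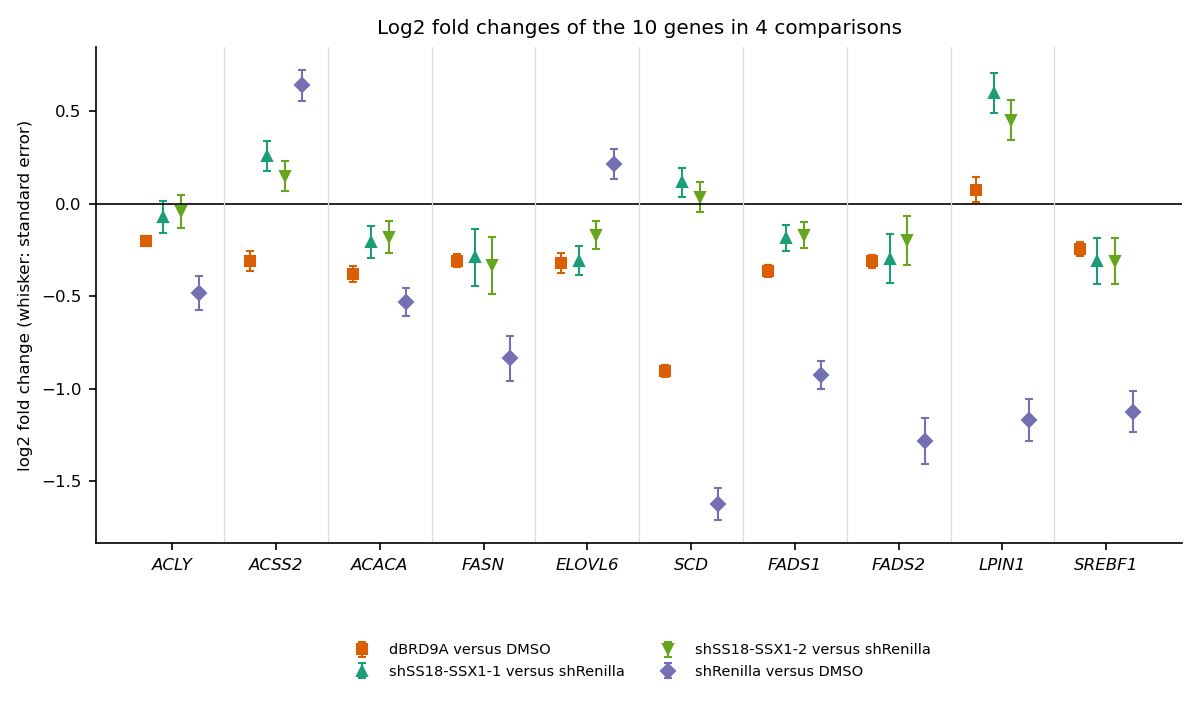
The log2 fold change (points) and its standard error (whiskers) are plotted for the 10 genes in 4 comparisons, with 0 as a line. SCD stands at -0.91 with dBRD9A and near 0 with either hairpin, and LPIN1 is above 0 with both hairpins and at -1.17 for shRenilla against DMSO.

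Knockdown of the fusion gave a mixed picture. Against shRenilla, the mean of both hairpins was lower for 3 of the 10 genes and higher for 2 at an adjusted p under 0.05 (edgeR's quasi-likelihood test), where 22.1% of 14269 genes tested were lower and 22.5% higher. The 10 genes had a median log2 fold change of -0.19, against -0.01 over all genes tested. LPIN1 rose most, ACSS2 rose by less, and ELOVL6, FADS1 and SREBF1 fell, while SCD did not pass the test.

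LPIN1 was 6.98, 8.48 and 7.35 CPM with shRenilla, 11.4, 11.7 and 11.6 CPM with shSS18-SSX1-1 and 10.0, 10.6 and 11.1 CPM with shSS18-SSX1-2. All 6 knockdown libraries were above the 3 controls, and LPIN1 rose by 0.53 (log2; standard error 0.0950, adjusted p = 0.000459). The hairpins alone gave 0.60 (adjusted p = 0.000490) and 0.45 (adjusted p = 0.00521) in the same edgeR fit. LPIN1 passed in each of the 18 alternatives run, and was 0.48 (adjusted p = 0.00155) without shRenilla replicate 1. Its level rests on few reads, and 1 of its 4 transcript rows held 22.1% of the count of the row used, while the other rows of the 10 genes held 95.2% or more.

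ACSS2 was 56.4, 51.0 and 50.7 CPM with shRenilla, 65.1, 63.3 and 61.5 CPM with shSS18-SSX1-1 and 55.6, 60.9 and 62.0 CPM with shSS18-SSX1-2. Libraries of the second hairpin overlapped the controls. The mean rose by 0.20 (standard error 0.0701, adjusted p = 0.0301 in edgeR) over both hairpins, and it was 0.26 (adjusted p = 0.0193) for the first and 0.15 (adjusted p = 0.176) for the second. Without shRenilla replicate 1 it was 0.27 (adjusted p = 0.00415).

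ELOVL6 was 44.3, 45.0 and 41.8 CPM with shRenilla, 36.0, 35.0 and 35.3 CPM with shSS18-SSX1-1 and 41.9, 38.6 and 38.3 CPM with shSS18-SSX1-2. The mean fell by 0.24 (standard error 0.0671, adjusted p = 0.0102 in edgeR). The highest library of the second hairpin lay just above the lowest control, and all others were below the controls. ELOVL6 passed in each of the 18 alternatives for the mean of both hairpins, and was -0.21 (adjusted p = 0.0227) without shRenilla replicate 1. It was -0.31 (adjusted p = 0.00607) for the first hairpin, and -0.17 (adjusted p = 0.111) for the second.

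FADS1 was 193, 181 and 203 CPM with shRenilla and between 161 and 176 CPM in the 6 knockdown libraries, which lay below every control. Its mean fell by 0.18 (standard error 0.0604, adjusted p = 0.0282 in edgeR). SREBF1 was 88.3, 70.8 and 95 CPM with shRenilla and between 59.5 and 79.5 CPM with knockdown. These groups overlapped, and the mean fell by 0.31 (standard error 0.106, adjusted p = 0.0287). Without shRenilla replicate 1, FADS1 was -0.16 (adjusted p = 0.0433) and SREBF1 -0.26 (adjusted p = 0.0927), so that 2 genes were lower and 2 higher in edgeR, where 18.9% of genes were lower and 23.6% higher. Of the 18 alternatives FADS1 passed in 8 and SREBF1 in 12.

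SCD was 410, 365 and 450 CPM with shRenilla, 453, 434 and 443 CPM with shSS18-SSX1-1 and 423, 441 and 414 CPM with shSS18-SSX1-2. Its log2 fold change was 0.08 (adjusted p = 0.406 in edgeR), with a 95% interval from -0.07 to 0.23. That interval is for a change at 96 hr of knockdown; the difference from its change at 6 hr of dBRD9A was not tested. FASN changed by -0.31 (standard error 0.132, adjusted p = 0.0705 in edgeR), FADS2 by -0.25 (adjusted p = 0.0936) and ACLY by -0.06 (adjusted p = 0.572), all with overlapping groups. ACACA changed by -0.19 (adjusted p = 0.0500417), and its knockdown libraries were all below the controls. The calls of FASN and FADS2 turn on which control library is left out. Without shRenilla replicate 1, FASN was -0.24 (adjusted p = 0.222) and FADS2 -0.14 (adjusted p = 0.381) in edgeR, and without replicate 2 they were -0.44 (adjusted p = 0.0112) and -0.38 (adjusted p = 0.00377). Without replicate 1, SCD was 0.10 (adjusted p = 0.277), ACACA -0.17 (adjusted p = 0.0974) and ACLY -0.12 (adjusted p = 0.175).

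Each hairpin was also compared with the same 3 shRenilla libraries, so the hairpins share their controls. With shSS18-SSX1-1, ELOVL6 and FADS1 were lower and ACSS2 and LPIN1 higher, 2 and 2 of 10, where 19.5% of genes were lower and 22% higher. FADS1 was at the limit there (adjusted p = 0.0467 in edgeR), and without shRenilla replicate 1 it did not pass (0.0551). Without shRenilla replicate 2, FASN, FADS2 and SREBF1 were lower as well with this hairpin (adjusted p = 0.0287, 0.00394 and 0.0102 in edgeR). That made 5 in all, where 20.4% of genes were lower. DESeq2 called 3 lower with all libraries, and its share of all genes was not taken. With shSS18-SSX1-2, LPIN1 was higher and no gene of the 10 was lower by edgeR's adjusted p, where 15.9% of genes were lower and 18.3% higher. At an unadjusted p under 0.05, 4 were lower, and DESeq2 called 0 lower. The shares of all genes were not taken for the unadjusted p or for DESeq2, so nothing is read from these 2 counts. Without shRenilla replicate 1, ACSS2 was also higher with this hairpin (adjusted p = 0.0311 in edgeR), where 19.7% of genes were higher. Without shRenilla replicate 2, FASN, FADS2 and SREBF1 were lower with it (adjusted p = 0.0217, 0.0231 and 0.0127 in edgeR), where 16.9% of genes were lower. Between the hairpins, 0 of the 10 genes passed by edgeR's adjusted p, where 0.028% of genes were lower with the second and 0.119% higher. The count was also 0 at an unadjusted p under 0.05 and 0 in DESeq2, for which the shares of all genes were not taken. The difference of the second from the first was widest for LPIN1, -0.15 with a 95% interval from -0.38 to 0.08, and for ELOVL6, 0.14 with an interval from -0.03 to 0.31. For SCD the interval was -0.25 to 0.09.

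Some markers of other mesenchymal lineages moved with knockdown in the same libraries. The marker lists were chosen with earlier results of these data known, so their calls are a description. The summed level of 8 fibroblast markers was 231.2 to 286.7 CPM with shRenilla, 880.2 to 926 with shSS18-SSX1-1 and 1063 to 1107 with shSS18-SSX1-2. Of the 5 tested 4 rose, where 22.5% of all genes were higher. COL1A1 went from 3.29 ± 0.930 to 481 ± 104 CPM and COL3A1 from 6.50 ± 0.623 to 182 ± 17.1 (SD, n = 3 and n = 6). The second mean and SD of each are over the libraries of both hairpins together, so the SD holds any difference between the hairpins. PDGFRA did not pass (-0.12, adjusted p = 0.256 in edgeR). COL1A2, DCN and LUM had at most 10, 1 and 4 counts in any library. The sum of 6 smooth muscle markers was 411.2 to 549.1 CPM with shRenilla and 1725 to 1884 over both hairpins, and 5 of 6 rose. MYH11 did not pass (0.08, adjusted p = 0.471 in edgeR). The summed adipocyte markers were 222.4 to 239 CPM with shRenilla and 75.5 to 137.9 with knockdown, nearly all of it CEBPA, and ADIPOQ and FABP4 were at 0 in each library. Hepatocyte markers stayed at 1.19 CPM or less in sum, with TTR at 0. Leaving out shRenilla replicate 1, 4 fibroblast and 5 smooth muscle markers rose as well, and 1 fibroblast marker fell. Of all genes, 23.6% were then higher and 18.9% lower. The part of these markers in the changes of LPIN1, ACSS2, ELOVL6, FADS1 and SREBF1 was not tested.

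The base composition of the libraries also moved with several of the genes. A GC index was taken for each library, as the median deviation from its group mean of the 1021 genes of at least 62.1% GC minus that of the 1021 genes of at most 38.2% GC, on the log2 scale. FASN (65.3% GC), SREBF1 (63.2%) and FADS2 (59.0%) had the highest GC content of the 10. In shRenilla replicate 2 the index was -0.33, and the deviations of FASN, FADS2 and SREBF1 from their group means were -0.32, -0.34 and -0.25 there on the log2 scale. SREBF1 was lowest in the library of lowest index in 5 of 5 groups, FASN in 4, FADS2, ACLY, ACSS2 and ACACA in 3 each, FADS1 and LPIN1 in 2 each, SCD in 1 and ELOVL6 in 0. FASN and SREBF1 lie above the cut of 62.1% and so belong to the high set of the index. The share of all genes in the same order was not taken, so nothing is read from these counts. With the GC trend of each library removed, an alternative added after these values were seen, 5 of the 10 genes were lower with knockdown and 2 higher in edgeR. That fit also called more of all genes, 25.1% lower and 28.2% higher. FASN (-0.28, adjusted p = 0.0120) and FADS2 (-0.24, adjusted p = 0.0221) joined ELOVL6, FADS1 and SREBF1 (adjusted p = 0.00160).

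The control states of the experiments differed for 9 of the genes. The DMSO libraries entered the selection of the genes and are the reference here too, so these tests are not independent of it. In shRenilla against DMSO, 8 of the 10 genes were lower and 1 higher, where 22.8% of 13669 genes were lower and 24.2% higher, and the median log2 fold change of the 10 was -0.88 against 0.01 over all genes. SCD fell by 1.62 (standard error 0.0882, adjusted p = 1.80e-07 in edgeR), from 1259 ± 56.9 to 408 ± 42.4 CPM. FADS2 (-1.28), LPIN1 (-1.17), SREBF1 (-1.12), FADS1 (-0.92) and FASN (-0.84) also fell. For LPIN1 that is 17.1 ± 0.837 CPM with DMSO against 7.60 ± 0.777 with shRenilla. ACACA (-0.53, adjusted p = 0.000216) and ACLY (-0.48, adjusted p = 0.00142) fell by less. Of the lower genes, 6 were past 1.5-fold, where 9.62% of all genes were lower past that fold with an adjusted p under 0.05.

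ACSS2 went the other way, from 33.8 ± 0.751 to 52.7 ± 3.23 CPM, a rise of 0.64 (standard error 0.0842, adjusted p = 0.000116 in edgeR). It was past 1.5-fold, where 12.8% of all genes were higher past that fold with an adjusted p under 0.05. ELOVL6 was 37.8 ± 1.57 and 43.7 ± 1.68 CPM, a difference of 0.21 that did not pass (adjusted p = 0.0541) and that passed without shRenilla replicate 1 (0.20, adjusted p = 0.0337). Without that library SCD was -1.63, FADS2 -1.37, SREBF1 -1.16, LPIN1 -1.11, FADS1 -0.93, FASN -0.89, ACACA -0.53, ACLY -0.41 and ACSS2 0.59. The 8 lower genes and ACSS2 passed in each of the 15 alternatives, including without that library. Each alternative uses DMSO libraries that entered the selection, so these passes do not make the comparison independent of it. Virus, time in culture, solvent and any sequencing run differ together here and cannot be told apart. The comparison shares its DMSO libraries with the dBRD9A comparison and its shRenilla libraries with the knockdown.

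Over the 5 groups, DMSO was highest for ACLY, ACACA, FASN, SCD, FADS1, FADS2 and SREBF1, with dBRD9A next and no overlap between them. For these genes dBRD9A was in turn above the highest of the 3 lentiviral groups without overlap. The selection of the genes bears on the order of DMSO and dBRD9A. The share of all genes separated in this way was not taken, so nothing is read from the lack of overlap. Among the lentiviral groups, neighbours overlapped for ACLY, FASN, SCD, FADS2 and SREBF1, whereas shRenilla was above both hairpins for ACACA and FADS1. ACSS2 was lowest with dBRD9A and highest with shSS18-SSX1-1, and LPIN1 was lowest with shRenilla and highest with dBRD9A and DMSO, which overlapped. ELOVL6 was highest with shRenilla, which overlapped shSS18-SSX1-2, and lowest with dBRD9A.

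By the root mean square difference of centred log2 means over the 5 groups, among 11066 genes of at least 5 CPM, the genes most like SCD were CPS1 (0.137), INSIG1 (0.149), HMBOX1 (0.155), GATSL3 (0.161) and PPARA (0.173). For the median profile of the 10 genes the nearest were CAND2 (0.0322), RPRD1A (0.0333), AKAP9 (0.0382), ATP2C1 (0.0418) and WSCD1 (0.0478). These are descriptions over 5 group means.

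All gene lists were chosen with earlier results of these data known. Their calls are therefore given as a description and are no independent evidence. Of the genes that control SREBP and LXR activity, 14 were tested. With dBRD9A 4 fell and 1 rose, with knockdown INSIG1 alone passed, and in shRenilla against DMSO 4 fell and 1 rose, by edgeR's adjusted p. Without shRenilla replicate 1, 3 fell and 1 rose with knockdown, and 6 fell and 2 rose in shRenilla against DMSO. Over all genes tested, 18.2% were lower and 17.7% higher with dBRD9A, 22.1% and 22.5% with knockdown, and 22.8% and 24.2% in shRenilla against DMSO. Without that library the shares were 18.9% and 23.6% with knockdown and 28.1% and 28.1% in shRenilla against DMSO. No list count was tested against these shares. INSIG1 was 155 ± 2.82 CPM with DMSO, 75.2 ± 0.418 with dBRD9A, 61.5 ± 1.44 with shRenilla and 51.2 ± 1.83 and 52.7 ± 4.38 with the hairpins. Its log2 fold change was -1.04 with dBRD9A and -0.26 with knockdown (adjusted p = 0.00838 in edgeR; -0.23, adjusted p = 0.0166, without shRenilla replicate 1). SREBF2, the paralog that drives sterol synthesis, fell by 0.34 with dBRD9A. The list medians were -0.01, -0.08 and -0.11, against 0.01, -0.01 and 0.01 over all genes.

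Of 12 other genes that supply acetyl-CoA, malonyl-CoA or NADPH, 5 fell and 1 rose with dBRD9A, 2 rose with knockdown, and 4 fell and 1 rose in shRenilla against DMSO. The shares of all genes called are those given above for each comparison. The mitochondrial malic enzyme ME2 (-0.38), the mitochondrial acetyl-CoA synthetase ACSS1 (-0.36) and the isocitrate dehydrogenase IDH1 (-0.32) fell with dBRD9A. With knockdown MLYCD, which breaks down malonyl-CoA, rose by 0.44. IDH2 rose by 1.38 in shRenilla against DMSO. When shRenilla replicate 1 was left out, 2 rose with knockdown, and 6 fell and 1 rose in shRenilla against DMSO.

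Of 14 other elongases and desaturases, 3 fell and 2 rose with dBRD9A, 2 fell and 6 rose with knockdown, and 5 fell and 3 rose in shRenilla against DMSO. For both lists of this paragraph the shares over all genes are again those given above. SCD5, the other human stearoyl-CoA desaturase, fell by 0.55 with dBRD9A, from 49.5 ± 0.985 to 33.8 ± 1.44 CPM. With knockdown the dehydratases of the elongation cycle PTPLA and PTPLB rose by 1.14 and 0.94, and ELOVL4 by 0.55. The list median with knockdown was 0.20, and 0.06 without shRenilla replicate 1, where again 2 fell and 6 rose (5 and 4 in shRenilla against DMSO). Of 18 genes of glycerolipid assembly, 5 fell and 3 rose with dBRD9A, 6 fell and 3 rose with knockdown, and 6 fell and 2 rose in shRenilla against DMSO. The paralogs of LPIN1 that passed with knockdown were LPIN3, which rose by 0.87, and LPIN2, which rose by 0.48, while AGPAT2, an acyltransferase of phosphatidate synthesis, fell by 1.03. With shRenilla replicate 1 left out, 6 fell and 3 rose with knockdown, and 7 fell and 3 rose in shRenilla against DMSO.

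**Figure D3:**
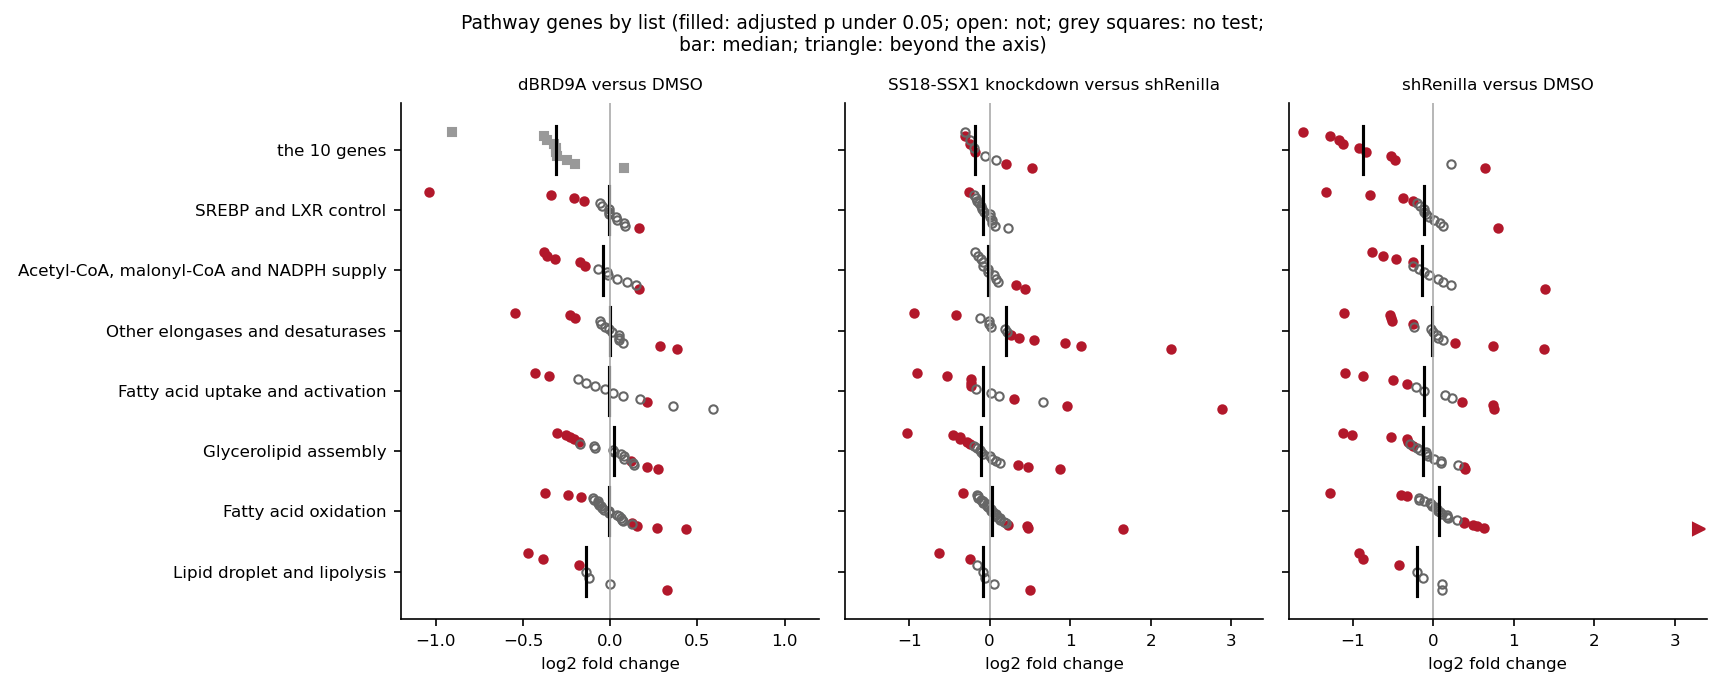
Log2 fold changes (horizontal) of the 10 genes and of 7 lists of other lipid genes (rows) are plotted in 3 comparisons, filled where the adjusted p is under 0.05 and with a bar at the median. In the dBRD9A panel the 10 genes are grey squares because no test is given for them. The lists were also chosen with earlier results of these data known, so their filled points are a description. The bar of the 10 genes is at -0.31, -0.19 and -0.88, and the triangle is PPARGC1A, which had 1 count over the 3 DMSO libraries.

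By the GENCODE annotation mapped to GRCh37, the build of the counts, SCD lies on chromosome 10 from 102106990 to 102124583 on the plus strand and LPIN1 on chromosome 2 from 11817721 to 11967535. Strand use in the counting is not given in the sources used here. Exons of FADS1 and FADS2 share 490 bases on opposite strands, and SREBF1 shares 556 with RAI1, so reads there cannot be told apart between these genes.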

How the data were processed

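Total RNA of 15 HSSYII libraries was sequenced by the authors. Per the submitters' processing notes and the methods, reads were aligned with STAR to hg19 (GRCh37) and counted with featureCounts, and raw read counts per RefSeq transcript were deposited; tool versions and the strand setting: not given in the sources used here. The methods name spike-in RNA, but the deposited count tables hold 0 spike-in rows. In the deposited table of dBRD9A replicate 2, 4535 rows have a broken symbol (its count column is a mixed text field), so the final field of each line was taken. Of 80 rows whose symbol had become a date, 78 were restored by transcript. The transcript row with the highest total was kept for each of 25681 symbols.

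The 10 genes and all gene lists were chosen with earlier results of these data known. CPM values use TMM over all 15 libraries. Genes kept by filterByExpr (minimum count 10) were fitted by robust quasi-likelihood (edgeR 4.0.16, R 4.3.3) with TMM factors and Benjamini-Hochberg adjustment over all genes tested, within the 6 libraries of dBRD9A and DMSO, the 9 lentiviral libraries, or the 6 of shRenilla and DMSO. A call is an adjusted p under 0.05 at any fold, and where 1.5-fold is named both conditions hold. The standard error is the log2 fold change over the root of F. Total counts were 18580419 to 27031647 per library, which limits the precision of low genes. The scripts were run on simulated counts as a check of the code only, and no value here rests on it. Besides the 10 genes, those named are up to 3 per list and comparison with the largest change past the test and at least 5 CPM, the 5 genes nearest in profile, markers and overlapping genes. Alternatives were RLE, upper quartile and no scaling, no filter, summed rows, DESeq2 1.42.0, a replicate block, a fit on all libraries and leaving out each library; removal of each library's GC trend, and the gene lists without shRenilla replicate 1, were added after seeing the data. GC content was known for 88.6% to 88.8% of genes tested. A gene that the naming rule selected is not reported here.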

Additional observations from a re-analysis of the deposited data

How the results depend on the processing

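For dBRD9A against DMSO, the comparison that chose the genes, 9 were called lower and 0 higher under each alternative except the fit on all 15 libraries (5 lower); the choice fixes these counts, so they are no sign of stability. The knockdown counts depended on the processing. For the mean of both hairpins 5 genes were lower in the fit on all 15 libraries and with the GC trend removed, and between 1 and 5 were lower, and 1 to 2 higher, when a library was left out. With shSS18-SSX1-1, 5 were lower in the all-library fit and with the GC trend removed, and 1 with upper quartile scaling, and leaving out a library gave 1 to 5 lower and 1 to 2 higher. With shSS18-SSX1-2, 1 was lower and 2 higher in the all-library fit, 2 were lower with the GC trend removed, and leaving out a library gave 0 to 3 lower and 1 to 2 higher. In shRenilla against DMSO, whose DMSO libraries entered the choice, 8 were lower under every alternative run, and 2 were higher with upper quartile scaling, in the all-library fit and with the GC trend removed, and 1 to 2 when a library was left out. With the GC trend removed, 25.1% of all genes were lower with knockdown, 23.8% with shSS18-SSX1-1 and 18.7% with shSS18-SSX1-2. The main fit called 22.1%, 19.5% and 15.9%. In shRenilla against DMSO 27.8% were higher with the GC trend removed, against 24.2% in the main fit. For the all-library fit, the scalings, the replicate block and most left-out libraries the shares were not taken, and those counts are a description. The cause of these shifts was not tested.

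Single libraries decided calls for the mean of both hairpins (edgeR's adjusted p). SREBF1 was lost without shRenilla replicate 1 (0.0927) or 3 (0.186), shSS18-SSX1-1 replicate 1 (0.0693) or 3 (0.0756), or shSS18-SSX1-2 replicate 1 (0.0636) or 2 (0.0755). FADS1 was lost without shRenilla replicate 3 (0.170), any replicate of shSS18-SSX1-1 (0.0615, 0.0589 and 0.0896) or of shSS18-SSX1-2 (0.0910, 0.0787 and 0.0515). ACSS2 was lost without shRenilla replicate 2 (0.0566) or 3 (0.0849), shSS18-SSX1-1 replicate 1 (0.0542) or shSS18-SSX1-2 replicate 3 (0.0706). FASN was gained without shRenilla replicate 2 (0.0112) or shSS18-SSX1-1 replicate 2 (0.0441), FADS2 without shRenilla replicate 2 (0.00377) and ACACA without shSS18-SSX1-1 replicate 1 (0.0410). The FADS1 call with shSS18-SSX1-1 was lost when any library but shRenilla replicate 2 was left out.

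Replicate numbers did not pair the libraries: over all genes, deviations of same-numbered libraries from their group means correlated between -0.275 and 0.221. With the replicate block 2 genes were lower and 1 higher with knockdown, ACSS2 (adjusted p = 0.0687) and FADS1 (0.0718) being lost, and 1 was lower with shSS18-SSX1-1. No other count moved beyond 1.5 times.

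Signs that turned belong to changes that passed no test. Leaving out a library gave log2 fold changes of ACLY from -0.117 to 0.0549 with knockdown, -0.133 to 0.0377 with shSS18-SSX1-1 and -0.100 to 0.0722 with shSS18-SSX1-2, and of SCD from -0.0202 to 0.126 with shSS18-SSX1-2. Between the hairpins it gave -0.0124 to 0.0734 for ACLY, -0.0527 to 0.103 for ACACA, -0.178 to 0.0870 for FASN, -0.0152 to 0.0409 for FADS1 and -0.107 to 0.103 for SREBF1. SREBF1 there was also 0.0137 with RLE factors, 0.00271 with upper quartile scaling, 0.0124 with total counts, 0.00323 with no filter, 0.00357 with summed rows, 0.0199 in the all-library fit, 0.0138 with DESeq2 and 0.0153 with the GC trend removed. The levels of ACLY (456 CPM) and SREBF1 (158 CPM) with dBRD9A moved by more than their SD with total counts alone.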

Other observations

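The lists in this section were also chosen with earlier results of these data known, so their calls are a description. Their counts stand beside these shares. Over all genes tested, 18.2% were lower and 17.7% higher with dBRD9A, 22.1% and 22.5% with knockdown, and 22.8% and 24.2% in shRenilla against DMSO. Without shRenilla replicate 1 the shares were 18.9% and 23.6% with knockdown and 28.1% and 28.1% in shRenilla against DMSO. Among genes of fatty acid uptake and activation, 12 were tested with dBRD9A and with knockdown and 11 in shRenilla against DMSO. The acyl-CoA synthetases ACSL3 (-0.43) and ACSL4 (-0.35) fell with dBRD9A, where 2 fell and 1 rose, while with knockdown 5 fell and 3 rose. The transporter SLC27A1 rose by 0.96 with knockdown, from 13.9 ± 1.69 to 27.5 ± 3.82 CPM (SD, the second over both hairpins together). SLC27A5 (-0.53) fell with knockdown, but not without shRenilla replicate 1 (-0.25, adjusted p = 0.0718 in edgeR). Without that library 3 of the list fell and 3 rose with knockdown. In shRenilla against DMSO 4 fell and 3 rose. Of 7 genes of lipid droplets and lipolysis, 3 fell and 1 rose with dBRD9A, 2 fell and 1 rose with knockdown, and 3 fell in shRenilla against DMSO. PNPLA3 fell with dBRD9A (-0.47) and in shRenilla against DMSO (-0.92), and the droplet coat gene PLIN3 rose by 0.51 with knockdown.

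Genes of fatty acid oxidation were spread around 0. Of 23 tested with dBRD9A, 3 fell and 4 rose, with PPARA, a nuclear receptor that drives oxidation, lower (-0.38) and ACADL higher (0.43). Of 24 tested with knockdown, 1 fell and 4 rose. The coactivator PPARGC1A was at 6.71 ± 1.68 CPM with shRenilla and 21.4 ± 4.15 CPM with knockdown (SD, the second over both hairpins together). That was a rise of 1.65 (adjusted p = 7.62e-07 in edgeR), and PPARGC1A had 1 count over the 3 DMSO libraries. In shRenilla against DMSO 3 fell, among them PPARA (-1.29), and 6 rose. When shRenilla replicate 1 was left out, 7 genes of oxidation rose with knockdown in edgeR, and 6 fell and 6 rose in shRenilla against DMSO. These counts stand beside the shares without that library given above. Of the droplet genes, 2 of 8 tested then rose with knockdown and the falls were lost, and 3 fell in shRenilla against DMSO. Of the uptake genes, 5 fell and 2 rose in shRenilla against DMSO.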
